A study of Danio rerio with 3 samples.

Results

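Whole zebrafish larvae that over-express serpini1 in neurons were compared directly with larvae of a serpini1 mutant line, 2 of the 3 libraries of the series. Both groups were on the AB background and were sampled at 7 days post fertilization. The transgenic group, titled Tg(serpini1), carried a driver in which huc, the neuronal promoter of elavl3, controls Tet-On, with gal4 also named in its genotype label, and a tre responder for serpini1 and the red fluorescent protein mKate2. The knockout group, titled serpini1-/-, had its genotype label set in transgene notation, and the sources used here do not give the lesion. Doxycycline, the inducer of the Tet-On system, was in the medium of both groups at 40 µg/mL from day 3 to day 7, as it was for the wild-type control. Each group was 1 library from 30 pooled larvae. The 2 libraries differ by the mutated gene, the transgene, the driver and the fluorescent protein together, and these cannot be told apart. Genes were chosen by level alone: 18758 of the 24555 genes in the deposited tables had at least 1 FPKM (fragments per kilobase, scaled to the mapped total) in either library and a knockout value in the table of all libraries.

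Neuroserpin, the product of serpini1, is a secreted serine protease inhibitor made mainly by neurons. It binds tissue-type plasminogen activator, the protease that turns plasminogen into plasmin, and so acts on proteolysis around synapses and vessels. Plasmin dissolves fibrin, cleaves matrix and can activate metalloproteinases. In bulk RNA of whole larvae, fewer cells of a type and less RNA per cell cannot be told apart.

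With 1 pooled library a side there was no replicate check and no test between conditions, and every statement below is a size. The size was log2((transgenic FPKM + 1)/(knockout FPKM + 1)), and a gene was called higher or lower where that value was 1 or more, or -1 or less. This is 2-fold on that scale, which understates ratios of low genes. Folds are ratios of FPKM, and the intervals beside them are 95% Clopper-Pearson intervals on estimated reads. They cover counting error only, since PCR copies of a molecule are counted as reads and the spread between pools was not measured. The inferred depth was 8110000 fragments for the transgenic and 7880000 for the knockout library. Among 2244 genes with at least 1000 reads over both libraries, the robust SD of the log2 ratio was 0.32 and the counting part of it 0.069.

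The targeted gene was examined first. Serpini1 stood at 8.05 FPKM in the knockout library and at 288 FPKM in the transgenic library, with control at 20.04 FPKM. The transgenic level was 35.8-fold the knockout level (30.05 to 42.9), the highest log2 ratio of all measured genes, 4.997. Transcript of the gene was thus still counted in the knockout library, and protein was not measured. FPKM of the whole gene does not separate the endogenous copy from the transgene. Among the 10 measured genes on either side of serpini1 in the gene order of the GRCz12tu assembly, 1 of 20 was past the 2-fold rule and the median log2 ratio was -0.04.

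Beyond the target, 27 of 44 inflammation genes, 20 of 53 macrophage markers, 10 of 21 neutrophil markers and 14 of 35 complement genes were higher in the transgenic library, while 19 of 37 genes of the exocrine pancreas and 6 of 47 clock genes were lower. The lists share members, such as mmp9 and mmp13a in the inflammation and neutrophil lists, and were chosen with earlier results of these data known. In all, 527 genes were higher in the transgenic library and 202 were lower, or 2.81% and 1.08% of the genes measured. The counts of every list are to be read beside these shares. At 4-fold the counts were 73 and 8, and at 8-fold 21 and 2. The middle of the distribution was narrow, with the 5th percentile of the log2 ratio at -0.60, the median at 0.04 and the 95th percentile at 0.81. Of all measured genes 54.0% had a log2 ratio above 0 and 45.7% below 0. The excess of higher over lower genes held at a mean level of 20 to 100 FPKM, where 89 genes were higher and 24 lower of 2224. It was absent above 100 FPKM, where 20 were higher and 21 lower of 595. Below 2 FPKM 33 were higher and 70 lower, but genes under 0.58 FPKM in the knockout are missing from the comparison. This removes genes mainly from the higher side at that level, so these 2 counts cannot be set against each other. Just inside the rule lay tnip2 (0.66 FPKM in the knockout and 2.32 in the transgenic library) and csdc2b (3.64 and 1.32). Just outside it lay cldni (96.1 and 193) and rhoj (2.75 and 0.88).

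**Figure D1:**
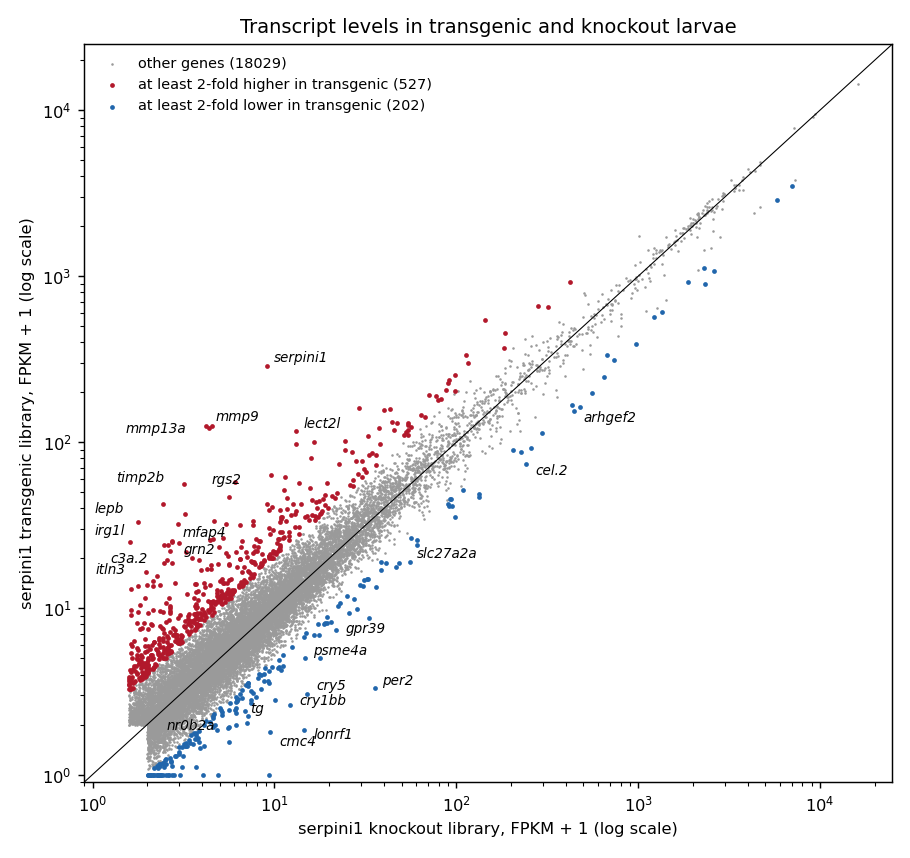
Level of each measured gene in the knockout (horizontal) and transgenic library (vertical), as FPKM + 1 on log axes, with the line of equal levels. The 527 genes in red were at least 2-fold higher and the 202 in blue at least 2-fold lower in the transgenic library, and serpini1 lies far above the line at 8.05 and 288 FPKM.

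The list of 12 genes with the highest ratios was led, after serpini1, by 2 collagen- and gelatin-cleaving metalloproteinases. Mmp9 stood at 3.21 FPKM in the knockout and 124 in the transgenic library, 38.8-fold higher (30.3 to 49.8). Mmp13a stood at 3.36 and 121 FPKM, 36.0-fold higher (26.2 to 50.1). Both were below the level of serpini1 in each library. Lepb, 1 of the 2 leptin genes of zebrafish, stood at 0.77 and 32.1 FPKM, 41.8-fold higher with a wide interval (16.2 to 157). Timp2b, an inhibitor of metalloproteinases, stood at 2.2 and 54.9 FPKM. Irg1l, whose relatives make the antimicrobial metabolite itaconate, stood at 0.61 and 24.2 FPKM. C3a.2, a copy of complement component 3, stood at 1.61 and 23.2 FPKM, and the intelectin gene itln3, which encodes a lectin, at 0.97 and 15.5. Rgs2, a brake on G protein signalling, stood at 4.64 and 45.8 FPKM, 9.88-fold higher (7.00 to 14.5), with control at 22.6.

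The 12 lowest ratios were led by per2, a clock gene that light induces, at 34.9 FPKM in the knockout and 2.31 in the transgenic library, 15.09-fold lower (12.3 to 18.6). Lonrf1, which encodes a ring finger protein, stood at 13.6 and 0.86 FPKM, 15.8-fold lower (11.4 to 22.6). Cry5, a photolyase-family gene, stood at 14.1 and 2.06 FPKM, and the clock repressor gene cry1bb at 11.2 and 1.62. For these 4 genes the control library, at 40.7, 9.36, 13.3 and 11.8 FPKM, lay within 1.5-fold of the knockout. Cmc4, a gene of a small mitochondrial protein, stood at 8.51 and 0.81 FPKM with few reads, and the interval of its ratio was wide (2.64 to 95). Thyroglobulin (tg), the precursor of thyroid hormone, stood at 9.08 and 1.81 FPKM, 5.02-fold lower (4.09 to 6.14). Nr0b2a, a nuclear receptor that represses bile acid synthesis in mammals, stood at 5.11 and 0.99 FPKM. Cel.2, of a lipase that bile salts activate, stood at 241 and 72.7 FPKM, and slc27a2a, which activates and takes up fatty acids, at 54.4 and 18.1.

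In some of the lowest genes it was the knockout library that stood away from control. The zinc-sensing receptor gene gpr39 stood at 20.8 FPKM in the knockout, 6.44 in the transgenic and 3.89 in the control library. Arhgef2, a guanine nucleotide exchange factor of small GTPases, stood at 443, 153 and 165 FPKM in the same order. Psme4a, a proteasome activator, was lowest in the transgenic library at 4.02 FPKM, with 13.8 in the knockout and 23.5 in control. Over all 527 higher genes, the control level lay between the 2 libraries for 395, at or below the knockout for 120 and at or above the transgenic level for 12. On the log2(FPKM + 1) scale control was nearer to the knockout for 423 of them. For the 202 lower genes these counts were 135 between, 44 at or above the knockout, 23 at or below the transgenic level, and 128 nearer to the knockout. A further library often lies between 2 that were chosen for being far apart, so these counts are a description only.

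**Figure D2:**
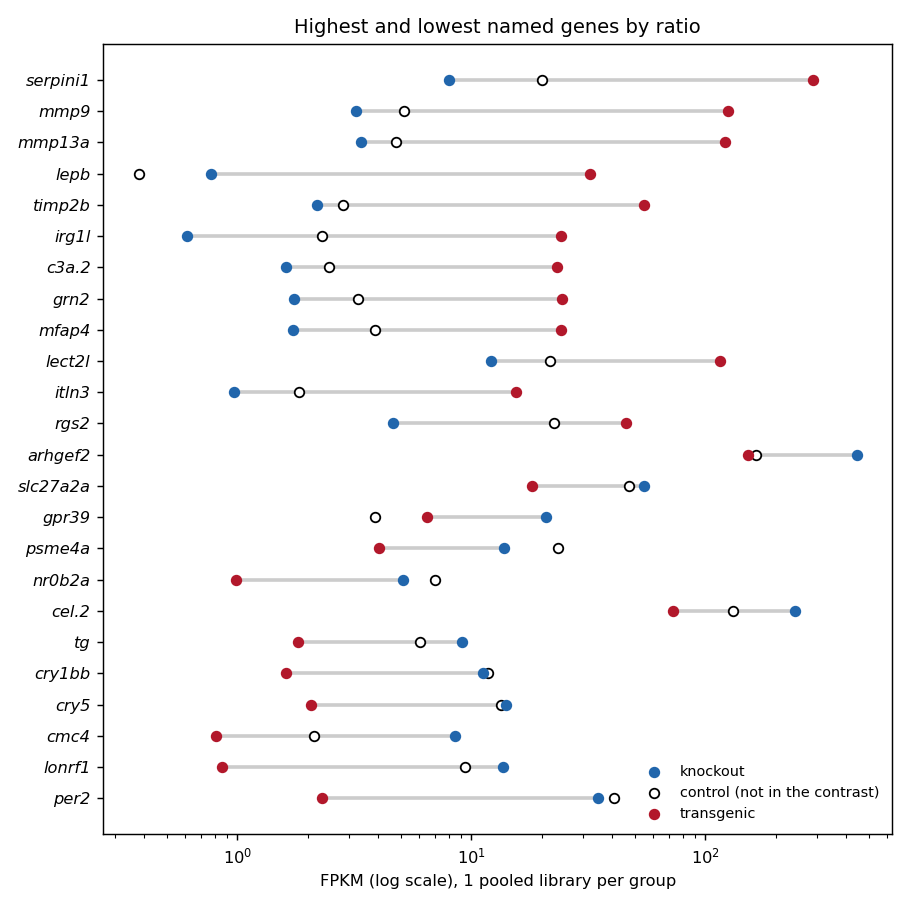
FPKM (log axis) of the 12 named genes with the highest and the 12 with the lowest log2 ratio in the knockout (blue), transgenic (red) and control library (open circles), 1 point per library. The control point of mmp9, 5.16 FPKM, sits near the knockout at 3.21 and far from the transgenic library at 124, while that of arhgef2, 165 FPKM, sits near the transgenic library at 153.

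Genes of plasminogen activation, the system that neuroserpin inhibits, had 4 of 28 measured members higher and 0 lower, and a median log2 ratio of 0.27 against 0.04 for all genes. Serpini1 itself is among the 4 higher members, and its difference was set by the design. The log2 ratios of the list ran from -0.49 to 4.997, the value of serpini1. A member under 1 FPKM in one library was measured here, as in every list, only where the other library reached 1 FPKM. Of the inhibitors, the plasmin inhibitor gene serpinf2b stood at 18.5 FPKM in the knockout and 36.6 in the transgenic library, just under the rule at a log2 ratio of 0.95. Serpine2, a protease inhibitor close to neuroserpin in its targets, stood at 18.4 and 20.2 FPKM, a ratio whose interval (0.91 to 1.32) included 1. Anxa2a and s100a10b, which together hold plasminogen at cell surfaces, were 2.47-fold (2.28 to 2.68) and 2.62-fold higher (2.37 to 2.91). S100a10a, the other copy of the second gene, lay on the opposite side at 173 and 123 FPKM.

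Plasminogen (plg) stood at 39.3 FPKM in the knockout and 49.7 in the transgenic library. Plaub, a urokinase-type activator, stood at 1.27 and 1.3 FPKM. Plat, the tissue-type activator that neuroserpin binds, was listed under a symbol outside the list and was added after its values were seen, at 1.52 and 3.59 FPKM (log2 ratio 0.86, 2.36-fold, 1.53 to 3.65). None of the 3 was past the rule. Plaua, the other urokinase-type copy, had no knockout value in the table of all libraries and stood at 2.85 FPKM in the transgenic and 0.78 in the control library. It would be higher at the lowest knockout value of that table, 0.58 FPKM, where its log2 ratio would be 1.285. None of the receptors that take up complexes of protease and inhibitor was past the rule. Their log2 ratios ran from -0.40 (apoer2, ratio interval 0.55 to 0.91) to 0.18 (lrp2b). Lrp1, listed under that symbol for 1 of the lrp1a copies, stood at 8.64 and 9.62 FPKM, vldlr at 13.6 and 11.4, and apoer2 at 5.14 and 3.65.

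Inflammation genes were the list with the largest median. Like the other lists, this one was chosen with earlier results of these data known. It includes mmp9, mmp13a, lepb, timp2b and irg1l, named above among the highest ratios. Its rank and its count of higher genes are therefore not independent of these data. Of 44 measured members 27 were higher in the transgenic library and 0 lower, and the median log2 ratio was 1.18. Besides the proteases and lepb, the chemokine genes cxcl8a and il8l1, named after their values were seen, stood at 0.98 and 12.9 FPKM and at 1.2 and 14.6 FPKM. The acute phase gene crp4, also named afterwards, stood at 12.65 and 56.1 FPKM, 4.44-fold higher (3.70 to 5.37). Regulators of the response differed by unequal amounts. Cebpb was 2.54-fold higher (2.37 to 2.73), while cebpd stood at 357 and 419 FPKM, under the rule. A further 8 members with at least 1 FPKM in the transgenic library had no knockout value in the table of all libraries, and 5 of them would be higher even at its lowest knockout value, 0.58 FPKM.

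Leptin signals through the kinase JAK2 and the factor STAT3, which drives its own feedback inhibitors. Of 22 measured genes of this pathway 3 were higher and 0 lower (median 0.42). The feedback inhibitor gene socs3b stood at 10.8 FPKM in the knockout and 38.7 in the transgenic library, 3.59-fold higher (3.03 to 4.3). Its copy socs3a stood at 71.2 and 130 FPKM, and socs1a at 14.4 and 26.7, both under the rule. Lifrb, a receptor of the interleukin 6 family, stood at 1.31 and 5.68 FPKM.

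Markers of phagocytes also differed between the libraries, and their part in the inflammation result was not tested. Of 53 macrophage and microglia markers 20 were higher and 0 lower, the median was 0.87, and the summed level was 1579 FPKM in the knockout and 2607 in the transgenic library. A few abundant members weigh heavily in that sum, such as apoeb (317 and 651 FPKM), ctsla (237 and 417) and apoc1l (256 and 380). Apoc1l is also in the liver list. The entry written as cd163 was matched to cd63, a different gene (101 and 202 FPKM). The sum is therefore not a measure of phagocyte transcript alone, and 3 of the 53 lay below 0. Grn2, a granulin of leukocytes, stood at 1.75 and 24.3 FPKM, 13.9-fold higher (6.92 to 33.4). Mfap4, a marker of zebrafish macrophages, stood at 1.73 and 24.1 FPKM. Mpeg1.2, a pore-forming protein of macrophages, stood at 1.55 and 18.7 FPKM, 12.04-fold higher (8.32 to 17.7). The scavenger receptor gene marco and the lysosomal protease gene ctss2.1 were 4.90-fold (3.59 to 6.88) and 4.63-fold higher (3.13 to 7.08). Apoeb, which carries lipid and is abundant in microglia, was 2.06-fold higher (1.98 to 2.14).

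Of 21 neutrophil markers 10 were higher and 1 lower (median 0.88), although their summed level was 1600.5 FPKM in the knockout and 1343 in the transgenic library. Lect2l, a chemotactic protein, stood at 12.1 FPKM in the knockout and 115 in the transgenic library, 9.51-fold higher (7.25 to 12.5), and the granule proteoglycan gene srgn was 4.59-fold higher (3.64 to 5.86). Mpx, the myeloperoxidase of neutrophil granules, named after its values were seen, stood at 2.67 and 9.27 FPKM. The lower member was the most abundant, cpa5, at 1346 and 606 FPKM, a carboxypeptidase gene that is also in the pancreas list. Of 29 matched lymphocyte markers 14 were measured, with 0 past the rule in either direction, against 3.89% of all genes, and a median of 0.03. So short a list cannot be told apart from that share. Their levels were low, and the leukocyte gene ptprc, shared with the macrophage list, stood at 1.35 and 2.84 FPKM.

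Red cell genes had 9 of 37 members higher and 0 lower (median 0.55). The globin gene hbbe1.1 stood at 143 FPKM in the knockout, 543 in the transgenic and 415 in the control library, and hbae3 at 281, 656 and 477 in the same order. In both it was the knockout that stood lowest, as also in LOC100334599, at 112, 334 and 160 FPKM in that order. This did not hold for all globin genes past the rule. Si:ch211-5k11.2 stood at 185, 454 and 192 FPKM, with control near the knockout, and MGC173646 at 53.5, 130 and 36.3, with control below it. Near-identical globin copies may share reads, and single values are uncertain. Urod, an enzyme of heme synthesis, stood at 1.57 and 5.31 FPKM. Thrombocyte markers had 7 measured members with 0 past the rule and a median of 0.46.

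Complement genes, made mostly by liver and leukocytes, had 14 of 35 members higher and 0 lower (median 0.78). The gene si:dkey-8k3.2, which matches c4b in the RefSeq table, stood at 1.47 FPKM in the knockout and 23.0 in the transgenic library, 15.6-fold higher (12.01 to 20.4). C3a.1, the abundant copy of component 3, stood at 44.5 and 117 FPKM, 2.63-fold higher, while the rarer c3a.2 was 14.4-fold higher (11.2 to 18.9). The activation factor gene cfb was 3.02-fold higher (2.67 to 3.42), and the pore subunit genes c6 and c9 were 3.44-fold (2.82 to 4.22) and 2.21-fold higher (2.04 to 2.4). Members past the rule included both activating components and pore subunits.

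Coagulation genes had 4 of 28 members higher and 0 lower (median 0.39). The fibrinogen chain genes fga and fgb stood at 55.2 and 122 FPKM and at 66.2 and 141 FPKM, and fgg, at 72.9 and 131, was under the rule. Tissue factor f3b, which starts clotting, stood at 2.72 and 7.76 FPKM. The wider list of liver secretory genes had 7 of 55 higher and 0 lower (median 0.22). Its most abundant members differed little, with the liver fatty acid binding protein gene fabp10a at 2393 and 2743 FPKM and apoa1b at 1943 and 2102.

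**Figure D3:**
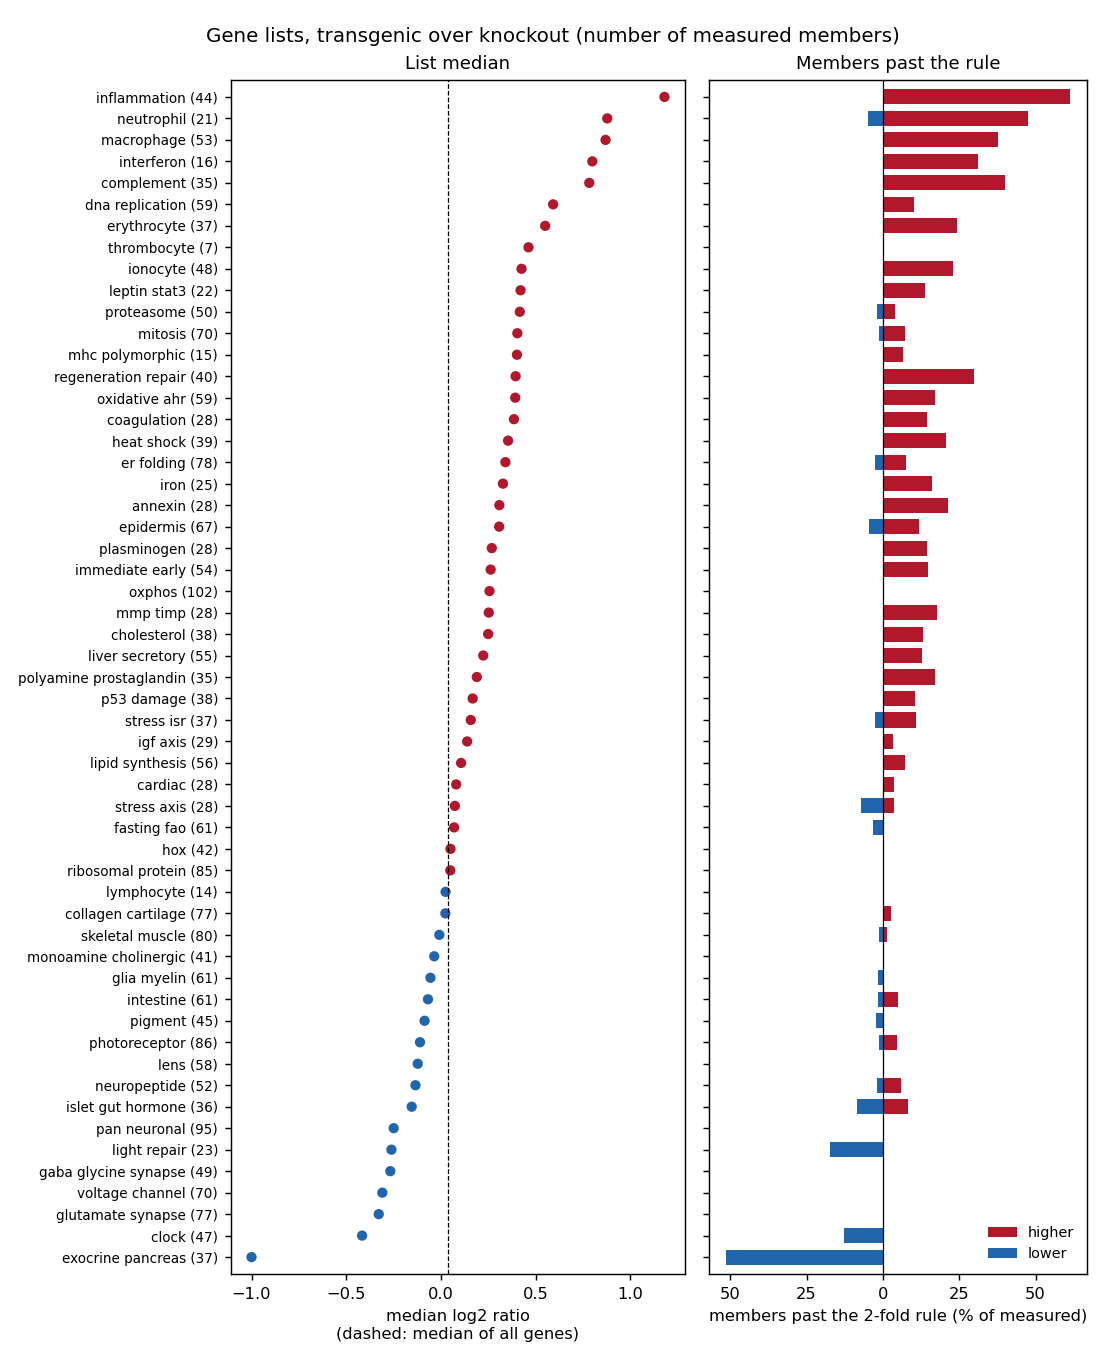
Left, median log2 ratio (transgenic over knockout) of each gene list, with the median of all genes, 0.04, as a dashed line; right, the percentage of measured members at least 2-fold higher (red) or lower (blue). The inflammation list lies farthest to the right at 1.18 and the exocrine pancreas list farthest to the left at -1.0.

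Interferon response genes had 5 of 16 measured members higher and 0 lower (median 0.80). Of 47 members matched in the tables, a further 15 had at least 1 FPKM in the transgenic library but no knockout value, so the measured members are those with more transcript in the knockout. At 0.58 FPKM for the knockout, 4 of the 15 would be higher. Isg15, a ubiquitin-like protein that interferon induces, stood at 3.07 FPKM in the knockout, 11.14 in the transgenic and 1.23 in the control library. Irf1b, a transcription factor of the response, stood at 0.75 and 4.05 FPKM. B2m, the light chain of class I histocompatibility molecules, stood at 2.71 and 9.56 FPKM and was the 1 of 15 antigen presentation genes past the rule (median 0.40).

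Of 50 measured proteasome genes 2 were higher and 1 lower by the rule. The log2 ratio was above 0 for 45 of them, against 54.0% of all genes, and the median was 0.42. The 2 were psme1 (4.89 and 11.5 FPKM) and psme2 (3.32 and 8.77), which form the activator that interferon induces in mammals. Subunits of the core did not pass it, such as psma6a at 23.65 and 43.6 FPKM and psma4 at 37.5 and 64.6. The knockout level of psma4 was also below control, 54.1 FPKM. Summed over the list, the level was 1338 FPKM in the knockout, 1815 in the transgenic and 1769 in the control library. By that sum the knockout was the library apart from control. Psme4a, described above, encodes a different activator and was the lower member.

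Metalloproteinases and their inhibitors had 5 of 28 members higher and 0 lower (median 0.25). The other members past the rule were adam8a, a protease of leukocytes, at 0.95 and 5.53 FPKM, and adamts1, which cleaves proteoglycans, at 9.73 and 27.7. The inhibitor genes differed among themselves. Timp2b was 24.95-fold higher (18.9 to 33.4), while its copy timp2a, named after its values were seen, stood at 27.9 and 27.8 FPKM. The structural matrix did not move with the proteases. Of 77 collagen and cartilage genes 2 were higher and 0 lower, against 2.81% and 1.08% of all genes, and the median was 0.02. Col1a1a stood at 356 and 434 FPKM and sparc at 353 and 377.

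Genes of fin regeneration and wound repair, a list that shares mmp9, mmp13a, lepb and timp2b with those above, had 12 of 40 higher and 0 lower (median 0.39). Annexins and their S100 partners had 6 of 28 higher and 0 lower (median 0.31). S100a11 stood at 25.85 FPKM in the knockout and 86.4 in the transgenic library, 3.34-fold higher (2.56 to 4.42). Anxa1b, of a family that limits inflammation in mammals, stood at 27.2 and 76.4 FPKM. Anxa1a, at 200 and 308 FPKM, was under the rule.

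The epidermal list split, with 8 of 67 members higher, 3 lower and a median of 0.31. Krt96 stood at 2.27 FPKM in the knockout and 20.9 in the transgenic library, 9.21-fold higher (5.99 to 14.9). Elf3, a transcription factor of epithelia, stood at 5.45 and 30.8 FPKM, and agr2, which folds mucins in mucous cells, at 12.1 and 37.6. On the other side, krt93 stood at 5.15 and 1.33 FPKM. The abundant keratin genes cyt1l, at 4333 and 2387 FPKM, and krt91, at 2833 and 1710, were lower without passing the rule. Control stood at 2697 FPKM for cyt1l, nearer to the transgenic library, and at 2924 for krt91, nearer to the knockout. Krt15, named after its values were seen, passed it at 431 and 168 FPKM.

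Of 59 measured genes of DNA replication 6 were higher by the rule and 0 lower. The log2 ratio was above 0 for 58 of them, against 54.0% of all genes, and the median was 0.59. Tyms, which makes thymidylate, stood at 1.5 FPKM in the knockout and 6.15 in the transgenic library, 4.16-fold higher (2.26 to 8.35). The clamp loader genes rfc2 and rfc4 were 2.55-fold (1.75 to 3.82) and 2.46-fold higher (1.73 to 3.63). Pcna, the sliding clamp, stood at 36.5 and 65.2 FPKM, under the rule. Mcm7, a helicase subunit, was equal in both at 71.7 and 73.8 FPKM, and its control level was 42.1.

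The mitosis list had 5 of 70 members higher and 1 lower, with 60 above 0 against 54.0% of all genes and a median of 0.40. The nuclear import gene kpna2 stood at 4.45 and 13.2 FPKM, and mad2l1, of the spindle checkpoint, at 2.08 and 5.87. Of 38 genes of the p53 and DNA damage response 4 were higher and 0 lower (median 0.17). Casp8, which starts cell death from receptors, stood at 1.43 and 5.35 FPKM, and gadd45aa, a stress gene, at 6.18 and 15.8. Ccng1, an abundant p53 target, stood at 174 and 239 FPKM and was under the rule.

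Chaperones of the endoplasmic reticulum had 6 of 78 members higher, 2 lower and a median of 0.34. Serpinh1b, the collagen chaperone, stood at 6.62 FPKM in the knockout and 31.0 in the transgenic library, 4.68-fold higher (3.79 to 5.84). The disulfide isomerase genes pdia6 and pdia4 were 3.02-fold (2.54 to 3.59) and 2.87-fold higher (2.32 to 3.58). Fkbp11, a folding factor of secretory cells, lay on the lower side at 47.7 and 17.8 FPKM. The other lower member, pdia2, is also in the pancreas list. Heat shock genes had 8 of 39 higher and 0 lower (median 0.35). Hspb1 stood at 16.6 and 43.4 FPKM and hsp90aa1.1 at 21.2 and 48.7, while the constitutive hspa8 stood at 1597 and 1903.

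Genes of oxidative defence and of the aryl hydrocarbon receptor had 10 of 59 higher and 0 lower (median 0.39). Thioredoxin (txn) stood at 23.5 FPKM in the knockout and 101 in the transgenic library, 4.29-fold higher (3.48 to 5.35), and the peroxiredoxin gene prdx1 was 4.18-fold higher (3.33 to 5.27). A ferritin gene, zgc:198419, which matches fthl28 in the RefSeq table, stood at 5.09 and 56.6 FPKM, 11.13-fold higher (7.74 to 16.5). It was also the leading member of the iron list, where 4 of 25 were higher and 0 lower (median 0.33). The metal reductase gene steap4 stood at 2.94 and 16.1 FPKM. Tfa, the iron carrier transferrin, stood at 501 FPKM in the knockout, 792 in the transgenic and 292 in the control library. The integrated stress response list had 4 of 37 higher, 1 lower and a median of 0.16.

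Immediate early genes had 8 of 54 higher and 0 lower (median 0.26). The AP-1 gene fosl1a stood at 3.40 FPKM in the knockout and 24.95 in the transgenic library, 7.34-fold higher (5.41 to 10.26). Junba and junbb, of the same factor, stood at 23.5 and 89.1 FPKM and at 36.4 and 121 FPKM. The abundant fosab differed little, at 129 and 151 FPKM. Of junbb and rgs2 the knockout levels were also well below control, which stood at 89.97 and 22.6 FPKM.

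Polyamine and prostaglandin genes had 6 of 35 higher and 0 lower (median 0.19). Odc1, the rate-limiting enzyme of polyamine synthesis, stood at 12.1 FPKM in the knockout, 96.8 in the transgenic and 27.7 in the control library, and the ratio of the first 2 was 7.99 (6.89 to 9.33). Sat1a.2, which breaks polyamines down, was 3.40-fold higher (3.00 to 3.85), so enzymes of both synthesis and breakdown were past the rule. Of prostaglandin synthesis, ptgs2a, an inducible cyclooxygenase, stood at 11.6 and 41.3 FPKM, and ptges, the next enzyme, at 3.87 and 17.6.

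Ionocytes, the skin cells that move salts, calcium and acid, had 11 of 48 markers higher and 0 lower (median 0.43). Trpv6, the epithelial calcium channel, stood at 3.68 FPKM in the knockout and 32.4 in the transgenic library, 8.80-fold higher (6.85 to 11.4), with control at 3.78. The potassium channel genes kcnj1a.4, kcnj1a.5, kcnj1a.2 and kcnj1a.6 were 3.31-fold to 4.95-fold higher, and these neighbouring copies may share reads. The sodium pump genes did not move as one. The most abundant subunits were atp1a1a.1, at 159 and 162 FPKM, and atp1a1a.4, at 238 and 202, while atp1a1a.2, named after its values were seen, stood at 32.0 and 83.2. Igfbp5a, an insulin-like growth factor binding protein of calcium-transporting ionocytes, stood at 2.43 and 7.38 FPKM. It was the 1 member of 29 genes of the growth factor axis past the rule (median 0.14).

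The exocrine pancreas, which makes digestive enzymes, had the lowest median, -1.0. Of 37 measured genes 19 were lower in the transgenic library and 0 higher, and the summed level was 43381 FPKM in the knockout, 21231 in the transgenic and 40447 in the control library. Amylase (amy2a) stood at 553 and 196 FPKM, 2.82-fold lower (2.69 to 2.96). The carboxypeptidase genes cpa1 and cpa4 were 2.81-fold (2.49 to 3.17) and 2.81-fold lower (2.62 to 3.03). The trypsin gene try stood at 6980 and 3481 FPKM, on the edge of the rule. The elastase gene zgc:92041, which matches cela1.6, stood at 7313 and 3785 FPKM, just outside it. Enzymes of this organ share near-identical copies, and reads may be split between them.

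Ptf1a, a transcription factor that acinar cells need, named after its values were seen, stood at 1.90 FPKM in the knockout and 1.70 in the transgenic library. Its level is low and the interval of the ratio (0.5 to 1.72) included 1. Within the gut, 3 of 61 intestinal genes were higher and 1 lower (median -0.07), against 2.81% higher and 1.08% lower of all genes. The lower one, dgat2, makes triglyceride and stood at 39.8 and 17.65 FPKM, with control at 24.1. Muc5.1, a mucin gene, and ace, a peptidase of the brush border, were 2.4-fold (2.17 to 2.67) and 2.17-fold higher (1.99 to 2.35).

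Hormone genes of islet and gut went in both directions, with 3 of 36 higher and 3 lower (median -0.15). Gcga, which encodes glucagon, stood at 8.08 FPKM in the knockout and 41.5 in the transgenic library, 5.14-fold higher (4.17 to 6.40), and its copy gcgb at 5.76 and 16.8. The somatostatin gene sst2 stood at 12.03 and 30.1 FPKM. Insulin (ins) was under the rule at 48.3 and 39.3 FPKM, and the interval of its ratio included 1. Gip, an incretin gene, stood at 8.39 and 2.58 FPKM with few reads (3.25-fold, 1.53 to 7.96).

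Among cholesterol genes 5 of 38 were higher and 0 lower (median 0.25). The synthesis enzymes cyp51 and hmgcra stood at 2.72 and 13.01 FPKM and at 2.90 and 8.43 FPKM, and the receptor gene ldlrb at 2.65 and 8.21. For hmgcra and ldlrb the knockout was also under control (5.64 and 6.80 FPKM), and for cyp51 it was not (2.01). Lipid synthesis and glycolysis genes had 4 of 56 higher and 0 lower (median 0.11). Among them were hexokinase hk2, at 2.37 and 8.27 FPKM, and the NADPH-producing enzymes me1 and pgd, which were 2.76-fold (1.88 to 4.01) and 2.18-fold higher (1.90 to 2.52).

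Fasting and fatty acid oxidation genes had 2 of 61 lower and 0 higher (median 0.07), against 1.08% lower and 2.81% higher of all genes. The 2 lower members encode ubiquitin ligases of muscle wasting. Fbxo32 stood at 45.3 FPKM in the knockout and 16.8 in the transgenic library, 2.69-fold lower (2.31 to 3.15), and trim63a at 89.96 and 40.5, 2.22-fold lower (1.99 to 2.48). Nuclear genes of oxidative phosphorylation had 0 of 102 past the rule, with 87 above 0 against 54.0% of all genes and a median of 0.26. Of 85 cytosolic ribosomal protein genes 0 were past the rule and their median was 0.05, close to that of all genes.

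Of 47 measured clock genes 6 were lower and 0 higher. The log2 ratio was below 0 for 32 of them, against 45.7% of all genes, and the median was -0.42. The lower members were repressors and activators alike. Cry1ba stood at 37.4 FPKM in the knockout and 16.1 in the transgenic library, 2.32-fold lower (2.1 to 2.57). Npas2, an activator, stood at 3.60 and 0.92 FPKM, and the bmal1 gene arntl1b, named after its values were seen, at 6.0 and 2.46. Nr1d1 and bhlhe40, 2 abundant repressors, lay above 0 at 102 and 148 FPKM and at 107 and 140 FPKM. Per1b, also named afterwards, was equal at 37.6 and 38.3 FPKM, so the 15.09-fold difference of per2 was not shared by all period genes.

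The list of light-induced and DNA repair genes overlaps the clock list through per2, cry5 and others, and had 4 of 23 lower and 0 higher (median -0.26). Lonrf1l stood at 27.3 FPKM in the knockout and 8.95 in the transgenic library, 3.05-fold lower (2.64 to 3.53), next to lonrf1 above. Xpc, which recognises ultraviolet damage, stood at 6.99 and 3.41 FPKM, under the rule at a log2 ratio of -0.86. Tefa, a light-responsive transcription factor, differed less, at 77.3 and 56.2 FPKM. The labels give no time of day or light schedule for the sampling of either pool.

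**Figure D4:**
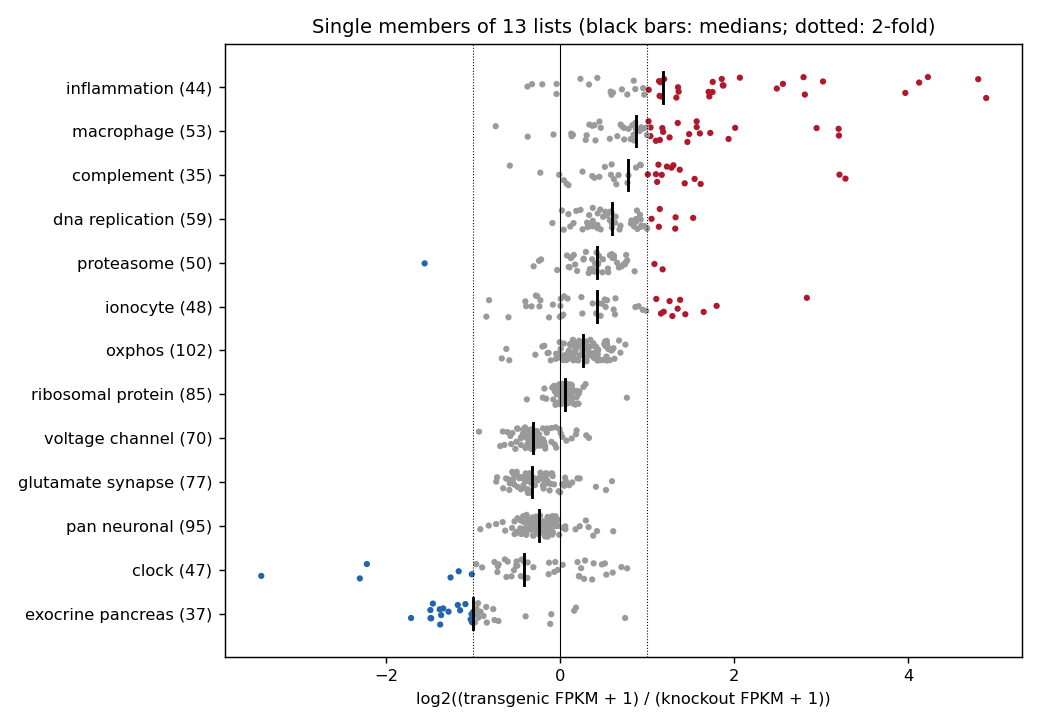
Log2 ratio (transgenic over knockout) of every measured member of selected lists, 1 point per gene, with list medians as black bars and the 2-fold lines dotted. Inflammation and complement reach far to the right (medians 1.18 and 0.78). The pan-neuronal, glutamatergic and voltage channel lists have medians of -0.25 to -0.33 with no member past the 2-fold lines. The lowest clock gene is per2, at -3.44, followed by cry5 at -2.30 and cry1bb at -2.22.

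In genes of neurons, the cells in which the transgene is driven, no pan-neuronal member of 95 passed the rule, against 3.89% of all genes. The log2 ratios of this list ran from -0.92 to 0.61 with a median of -0.25, and 84 lay below 0 against 45.7% of all genes. Among those nearest to it, stmn3, a microtubule regulator, stood at 9.34 FPKM in the knockout and 4.47 in the transgenic library, 2.09-fold lower (1.55 to 2.83). Snap25a, of the vesicle fusion machinery, and elavl3, the gene whose promoter drives the transgene, were named after their values were seen. They stood at 127 and 119 FPKM and at 44.5 and 37.8 FPKM. The tubulin gene tuba1c lay on the other side at 179 and 210 FPKM.

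Synapse and channel genes also had more members below 0 than the 45.7% of all genes, by count. The glutamatergic list had 65 of 77 members below 0 (median -0.33), voltage-gated channels 62 of 70 (median -0.31) and the GABA and glycine list 38 of 49 (median -0.27), each with 0 past the rule in either direction. The AMPA receptor gene gria1b stood at 5.61 and 2.97 FPKM, 1.89-fold lower (1.47 to 2.46). Syngap1a and shank1, of the postsynaptic scaffold, were 1.78-fold (1.5 to 2.13) and 1.68-fold lower (1.49 to 1.90). The potassium channel gene kcnd3 stood at 4.71 and 2.54 FPKM, and gad1a, which makes GABA, at 1.51 and 0.68. Scaling the transgenic library to the median ratio of 8979 well-expressed genes, those with at least 5 FPKM in each library, lowered the log2 ratios by about 0.05.

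Other neural lists stayed nearer to 0. Monoamine and cholinergic neurons had 0 of 41 past the rule (median -0.03) and glia, myelin and progenitors had 1 of 61 lower and 0 higher (median -0.06). The lower one was her12, a Notch target of neural progenitors, at 5.14 FPKM in the knockout, 1.74 in the transgenic and 2.23 in the control library. Neuropeptide genes had 3 of 52 higher and 1 lower (median -0.13), against 2.81% higher and 1.08% lower of all genes. Rln3a, a relaxin gene of hindbrain neurons, stood at 4.62 and 17.2 FPKM with control at 13.5. Pcsk1, which cleaves prohormones, stood at 16.4 and 7.05 FPKM, 2.33-fold lower (2.06 to 2.64).

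In the eye, photoreceptor genes had 4 of 86 higher and 1 lower (median -0.11), against 2.81% higher and 1.08% lower of all genes. Pde6h, a subunit of the cone phosphodiesterase, stood at 87.1 FPKM in the knockout, 205 in the transgenic and 337 in the control library. The green cone opsin opn1mw2 stood at 3.84 and 11.4 FPKM. Lens genes had 0 of 58 past the rule (median -0.12). Some crystallin genes are near-identical copies, and their single values are uncertain. Muscle, heart, pigment and Hox genes had medians between -0.09 and 0.08, with at most 1 member past the rule in each direction in each of these 4 lists. Within them, myoz2a, a sarcomere protein, stood at 30.1 and 13.9 FPKM, and ankrd1a, a stress gene of muscle and heart, at 1.67 and 8.58.

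The stress axis list had 1 of 28 higher and 2 lower (median 0.07). Fkbp5, a target of the glucocorticoid receptor, stood at 97.8 FPKM in the knockout, 203 in the transgenic and 184 in the control library, 2.08-fold higher in the transgenic than in the knockout (1.97 to 2.19). Here too the knockout was the library apart from control. Crhr2, a receptor of the corticotropin-releasing hormone family, stood at 8.71 and 3.43 FPKM, and thyroglobulin was the other lower member. Klf9, which glucocorticoids induce, stood at 142 and 176 FPKM, under the rule.

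Genes under 0.58 FPKM in the knockout are missing from the comparison above, which removes genes mainly from the higher side. At least 1 FPKM in the transgenic library and no knockout value were found together for 480 genes, of which 103 would be higher at that lowest value.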

How the data were processed

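RNA came from pooled whole larvae (RNeasy Plus kit, Illumina libraries, per the labels' protocols). Per the submitters' processing notes the tools were HISAT, StringTie and DESeq2 and the build was GRCz11; versions and roles are not given there. The authors deposited FPKM to 2 decimals, per the file headers; a table of all 3 libraries, sorted by the knockout value and incomplete below 0.58 FPKM, gave 19699 genes. The authors' deposited comparisons with control gave gene lengths, further FPKM values, log2 ratios and p-values from a Poisson method, per the file headers and names. Their log2 ratios were not used, and their p-values served only for depth. Under a Poisson comparison, the p-value of a gene at 0 in control fixes its reads in the other library, given the depth ratio. That ratio was fitted to bring these reads nearest to whole numbers, and genes with large p-values were left out. All 596 genes used of the transgenic and 15 of the knockout comparison then came within 0.05 of a whole number, which is partly set by the fit. These reads, with FPKM and gene length less 120 bases, gave the depths from 86 genes (robust CV 1.49%). The 120 bases were chosen to give the smallest CV. Reads per gene were estimated from these depths.

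Ratios were computed on FPKM + 1 with Python 3.11, pandas 2.3.3 and scipy 1.17.1, for genes reaching 1 FPKM in one or both libraries. Calculations were tested on simulated data. Of 2519 gene symbols written in 55 lists, 2132 matched the tables directly, 227 matched RefSeq symbols and 25 RefSeq synonyms (assembly GRCz12tu, used for names and gene order only). The libraries compared, the lists and the alternatives were chosen with earlier results of these data known. Named genes are serpini1, the 12 highest and 12 lowest ratios among genes with at least 5 FPKM in the higher library and a gene name, the 5 largest ratios and 2 most abundant members of each list, and plasminogen genes; others are marked. Some genes that the rule names are not reported here. No test between conditions was run.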

Additional observations from a re-analysis of the deposited data

Results flagged for a closer look

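Outside the table that the comparison rests on, 20 genes had no knockout value there but at least 4-fold more than its lowest knockout value in the transgenic library, and were at least 2-fold above control. They are outside the main measurement because the table gives no knockout value under 0.58 FPKM. Those with gene names are given here. Il1b, the cytokine interleukin 1 beta, stood at 26.25 FPKM in the transgenic and 0.56 in the control library, with about 339 reads in the transgenic library. Saa, an acute phase protein, stood at 25.9 FPKM and was listed at 0 in control. Hamp, the iron hormone hepcidin, stood at 30.7 FPKM in the transgenic and 5.78 in the control library, and was listed at 0 in the knockout in the authors' deposited comparison. Lepa, the other leptin gene, stood at 7.81 and 0.50 FPKM in transgenic and control, plekhs1 at 7.05 and listed at 0, sult5a1 at 6.46 and 1.01, and dram1 at 5.77 and 0.98.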

How the results depend on the processing

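The counts of genes past the 2-fold rule depended on the pseudocount. With 0.1 FPKM in place of 1, 959 genes were higher and 594 lower, and with 5 FPKM 192 and 47. With a floor of 5 FPKM, 414 genes were higher and 114 lower. With the transgenic library scaled to the median ratio, both counts were within 1.5-fold of 527 and 202. Without a floor they could not change, because values under 1 FPKM in both libraries cannot pass the rule with a pseudocount of 1 FPKM. Adding genes that lack a knockout value at the lowest one could raise only the higher count, which became 630. All 527 and 202 genes remained called at the pseudocount of 0.1 FPKM, and 192 and 47 at 5 FPKM. This follows from arithmetic, since a smaller pseudocount moves each ratio further from 1 and a larger one moves it nearer. The log2 ratio of serpini1 was 4.49 with the pseudocount of 5 FPKM. No list median of at least 0.1 in size changed sign under any alternative run. This was nearly fixed in advance for some of them. A change of pseudocount cannot change the sign of a gene's ratio, and scaling moved ratios by only about 0.05. Named genes past the rule could not change sign under any of the alternatives. Of these 160 genes, 63 were under the rule at the pseudocount of 5 FPKM and 5 with scaling. No paired analysis was possible because each group has 1 library, and no library could be left out. Low genes are limited by depth. Among genes past the rule, the counting interval did not include 1 for 522 of 527 higher genes. It did not for 181 of 195 lower genes with a known length. These genes were selected for a large ratio of the same reads, so the 2 shares are largely set by that selection.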
